A study of Mus musculus with 8 samples.

Results

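The transcriptional response of epididymal white adipocytes to 4 weeks of high-fat diet (HFD) was examined in wild-type mice (WT) by RNA-seq. It rests on the 2 libraries of WT mice on a Western-type HFD and the 2 of WT mice on standard diet (SD, called normal chow in the labels), which are 4 of the 8 libraries of the series. Genes entered the comparison when their normalized counts averaged 5 or more across the 8 libraries, which held for 18800 of the 30387 genes measured. The lowest mean tested was 5 and the highest mean left out was 4.88. WT mice were littermates of Ad-Yap/Taz-KO mice. Those carry floxed Yap and Taz alleles (Yap fl/fl and Taz fl/fl) together with Adipoq-Cre, a Cre made under the promoter of adiponectin, and lack Yap1 and Wwtr1 in adipocytes. The other 4 libraries, 2 from these mice on each diet, served to estimate the spread and to test whether the effect of the diet differed between the genotypes. Each group holds 2 libraries. Male animals were used in the study. It names floxed littermates as controls of an inducible knockout line, and the alleles of the WT littermates of the line used here are not stated. The diets began at an age of 5 weeks according to the description of the data set, while the methods of the study start them a week later. RNA came from adipocytes isolated from the fat pad, and no sorting of the cells is described.

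White adipocytes store surplus energy as triglyceride in 1 large lipid droplet. Fatty acids reach the droplet either from circulating lipoproteins, through lipoprotein lipase and fatty acid transporters, or from glucose by de novo lipogenesis, a pathway under control of insulin and the transcription factors SREBP and ChREBP. In growing fat, adipocytes are known to enlarge, to secrete more leptin and to remodel the collagen network around them, and immune and vascular cells of the tissue change as well.

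The deposited values are reads per gene divided by a size factor of each library and rounded, and are called normalized counts here. Between 14.0 and 15.4 M reads were counted on genes in the WT SD libraries and between 19.6 and 22.3 M in the WT HFD libraries. The WT HFD libraries differed from each other less than the libraries of any other group, except in genes with few reads. Among genes of 1000 to 5000 reads their squared difference was 6.16 times the Poisson expectation, against 35.2 times between the WT SD libraries and up to 83.9 times in the other groups. In genes with 5 to 20 reads it was between 4.74 and 6.50 times in all 4 groups. Whether they hold RNA of 1 source or pool was not tested. The WT HFD libraries were therefore averaged and counted as 1 sample in the test, their 2 values are printed without a mean ± SD, and counts of genes that passed with the libraries as 2 samples are given beside. A gene is called if its Benjamini-Hochberg adjusted p in limma is at most 0.05 and its log2 fold change (given with its standard error, SE), on the log2(normalized count + 1) scale, is at least 0.59 in either direction. The study describes the libraries of a group as biological replicates from separate mice, which the labels do not mention. Counting the WT HFD pair as 1 sample is thus stricter than that description. An exact permutation test of 2 libraries against 2 cannot give a two-sided p below 0.333 for a single gene.

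The adipocyte markers were at high levels in all 4 WT libraries. Adiponectin (Adipoq) had 35132 and 33392 normalized counts on SD and 54830 and 53308 on HFD, and perilipin 1 (Plin1) had 33826 and 38431 on SD and 56852 and 57222 on HFD. The sum of 12 adipocyte markers lay between 340792 and 351384 on SD and between 449727 and 457002 on HFD. Summed markers of macrophages, endothelial cells, fibroblasts, erythrocytes and lymphocytes were lower on HFD. The 14 macrophage markers summed to 6473 and 6550 on SD and to 3690 and 3920 on HFD, the 13 endothelial markers had 36898 and 44379 on SD and 22822 and 23431 on HFD, and the 12 fibroblast and progenitor markers had 13701 and 14641 on SD and 10086 and 10287 on HFD. The 5 erythrocyte markers had 1164 and 1675 on SD and 360 and 446 on HFD, and the 10 lymphocyte markers 134 and 216 against 44 and 53, with Cd3d at 0 in all 4 WT libraries. Sums for mesothelial cells (262 and 271 on SD, 276 and 300 on HFD) and mural cells (25003 and 26669 on SD, 27146 and 28040 on HFD) were slightly higher on HFD, those for 11 markers of lipid-associated macrophages were 3132 and 3283 on SD and 2924 and 3031 on HFD, and those of 8 skeletal muscle genes 551 and 776 against 950 and 1130. Although the mural sum was higher, 6 of its 10 markers were below both SD libraries on HFD and 3 above. Of the 6 measured genes of epididymal epithelium, Crisp1, Adam7 and Cst11 were at 0 and the others summed to at most 14. In libraries of isolated cells, fewer cells of a type and less RNA per cell cannot be told apart, and the part of these other cells in the results below was not tested.

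**Figure D1:**
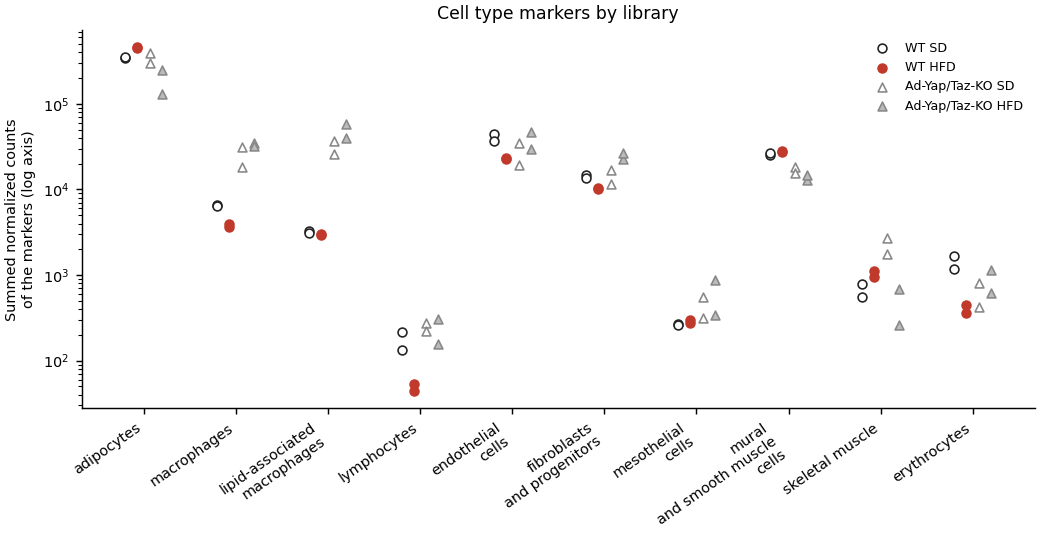
Summed normalized counts of markers of each cell type in every library, on a log axis, with 2 points per group: open circles WT SD, red circles WT HFD, open triangles Ad-Yap/Taz-KO SD and grey triangles Ad-Yap/Taz-KO HFD. In the WT HFD libraries the sums for macrophages (3690 and 3920), endothelial cells (22822 and 23431), fibroblasts (10086 and 10287), lymphocytes and erythrocytes lie below both WT SD libraries, and the adipocyte sum (449727 and 457002) above them.

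After 4 weeks of HFD, WT adipocytes held more mRNA of desaturases, of enzymes of lipid synthesis and of markers of fat expansion, and less of the noncoding RNA Neat1 and of the clock gene Npas2. In all, 539 genes were called, 210 higher on HFD (1.12% of the genes tested) and 329 lower (1.75%). The genes called higher had 208 protein-coding members, those called lower 274. A rise of at least 2 on the log2 scale was seen for 60 of the genes called higher, and a fall of that size for 134 of those called lower. With the WT HFD libraries as 2 samples, 1643 genes passed as higher (8.74%) and 1734 as lower (9.22%), and all 539 genes were among them with the same direction. Without regard to a test, both WT HFD libraries lay above both WT SD libraries for 31.4% of the genes and below both for 33.6%. They also lay outside the range of the other 6 libraries for many genes, above all 6 for 20.3% of the genes tested and below all 6 for 17.1%. Among the genes called, this was so for 188 of the 210 higher and 310 of the 329 lower genes.

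The balance of rises and falls depended on the scaling and on the filter. The 2 WT HFD libraries summed to 20994246 and 20815181 normalized counts, the WT SD libraries to 15507967 and 15877768. With equal library totals, the deposited values being rescaled, the median log2 fold change of all genes shifted by -0.40, and 126 genes were called higher and 1222 lower. Upper-quartile scaling moved it by -0.13 and gave 208 higher and 610 lower, and quantile normalization gave 108 higher and 218 lower. Of the 87 called genes named here, 8 were not called with equal totals, namely Col6a1, Cspg4, Inhbb, Lrp6, Nsdhl, Plin2, Sel1l and Serpinh1, all with higher values on HFD. A pseudocount of 0.1 ended the calls of 19 (Adora1, Angpt1, Bcl2l11, Cd68, Col27a1, Col6a1, Cspg4, Cxcl10, Gm21857, Hbb-bt, Hmgcs1, Inhbb, Lrp6, Marc1, Nsdhl, Pdgfra, Sfrp1, Slc5a7 and Tgfb1). Quantile normalization ended those of 22 (Adora1, Amph, Cadm4, Cd59a, Cd68, Col27a1, Col6a1, Cspg4, Dpt, Fam83f, Gm21857, Hbb-bt, Hmgcs1, Inhbb, Lrp6, Mmp11, Nsdhl, Plin2, Scd1, Sel1l, Serpinh1 and Sfrp1). Removing the trend with GC content and length ended the calls of Cd68, Cfd, Hbb-bt, Junb and Lrp6. Without the filter on low values 300 genes were called higher and 34 lower, and 80 of the 87 calls ended. The losses without the filter given below for Scd1, Cfd and Bcl2l11 are among these 80. Fold changes below are those of the deposited scaling. Nearly all calls also depended on both WT SD libraries, since 1 SD sample is left without either of them: without WT SD replicate 1 limma called 0 genes (2447 at an unadjusted p below 0.05) and without WT SD replicate 2 only 18. Of the same 87 genes, 0 and 9 were still called in these fits, and none was called in the other direction. The fold changes of Bmp3, Gm21857, Gm9696, Marc1, Sfrp5, Slc5a7 and Vgll3 moved by more than 1.5 times on leaving out an SD library.

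**Figure D2:**
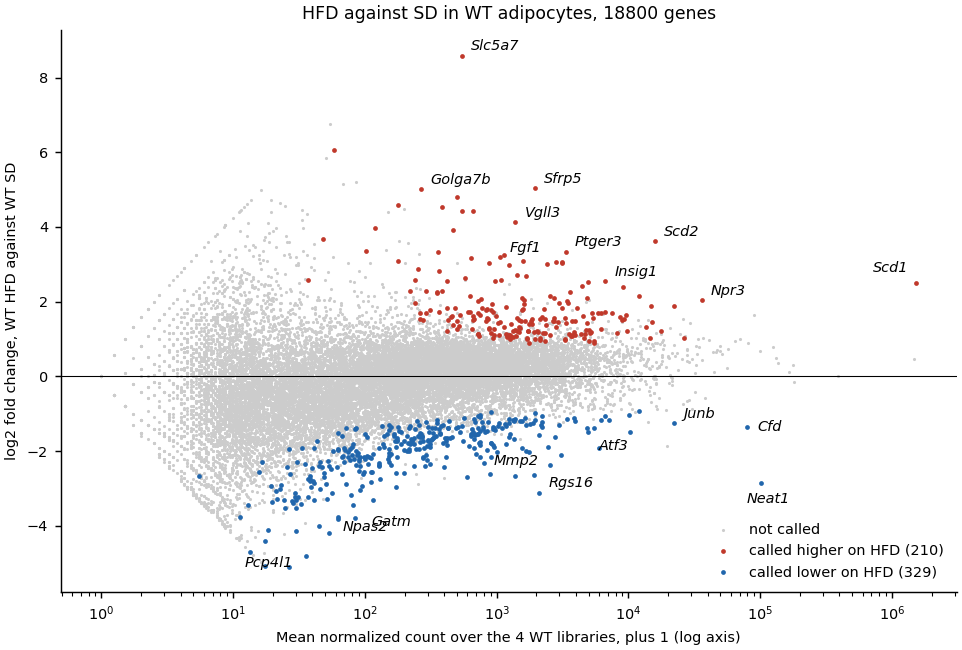
Each point is 1 of 18800 genes, with its mean normalized count over the 4 WT libraries plus 1 (horizontal log axis) and its log2 fold change, WT HFD against WT SD (vertical axis). The 210 genes called higher are red, the 329 called lower blue. Slc5a7 (8.58), Scd2 (3.62) and Scd1 (2.50) stand out above, and Npas2 (-4.18), Rgs16 (-3.11) and Neat1 (-2.85) below.

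The gene that gained most was Scd1, stearoyl-CoA desaturase, which makes monounsaturated fatty acids for storage (ENSMUSG00000037071, chromosome 19, 44394451 to 44407709, minus strand, GRCm38). It had 457683 and 455110 normalized counts on SD and 2602971 and 2567533 on HFD, a 5.66-fold higher mean and a log2 fold change of 2.50 (SE 0.55, adjusted p = 0.041). The call was lost with quantile normalization (log2 fold change 1.44, adjusted p = 0.18), with a pseudocount of 8 (0.053) and without the filter (0.29). Its share of all normalized counts was 2.95% and 2.87% on SD and 12.4% and 12.3% on HFD, and its gain made up 40.8% of the gain in the library totals. Its neighbour Scd2, a second desaturase (ENSMUSG00000025203, chromosome 19, 44293676 to 44306864, plus strand), had 1621 and 3457 on SD and 29068 and 29160 on HFD, a log2 fold change of 3.62 (SE 0.45, adjusted p = 0.0056). The desaturases are related in sequence, and reads that align equally well to both were not counted. The next largest gain was that of mt-Rnr2, a mitochondrial ribosomal RNA, with 1207562 and 1268543 on SD and 1775537 and 1654462 on HFD, which was not called (adjusted p = 0.75) and took 9.15% of the gain. Fasn, Lpl, Lep, Plin4, Sptbn1, mt-Rnr1, mt-Co1 and Npr3 followed, each with 0.81% to 1.78% of it.

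Several genes of de novo lipogenesis rose. Of 21 such genes, 20 were tested, 5 were called higher and none lower (12 higher and 0 lower with the libraries as 2 samples), and 19 had both HFD libraries above both SD libraries. That order held for 31.4% of all genes tested. The median log2 fold change of the 20 was 1.27, beside -0.03 over all genes. Acss2, which makes acetyl-CoA from acetate, rose from 702 and 636 to 5540 and 5748 normalized counts, a log2 fold change of 3.08 (SE 0.45, adjusted p = 0.011). Acly, ATP citrate lyase, rose from 4608 and 4782 to 14344 and 14930 (log2 fold change 1.64, adjusted p = 0.015), and G6pdx, which supplies NADPH, from 2081 and 2381 to 6792 and 6768 (1.61, adjusted p = 0.026). In each of these genes both HFD libraries, which count as 1 sample, lay above both SD libraries.

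Several other enzymes of the same chain had higher values on HFD but did not pass the limits. Fatty acid synthase (Fasn) had 42835 and 44565 normalized counts on SD and 135080 and 138092 on HFD, a log2 fold change of 1.64 with an adjusted p of 0.064 (0.0049 with the libraries as 2 samples). Malic enzyme (Me1) had 3001 and 3222 against 9643 and 10011 (adjusted p = 0.053), Pgd of the pentose phosphate pathway 2456 and 3333 against 7626 and 7941 (adjusted p = 0.060), and the elongase Elovl6 390 and 438 against 1087 and 999 (adjusted p = 0.058). Thrsp had 5310 and 7257 on SD and 14920 and 15146 on HFD, and the citrate carrier Slc25a1 had 2302 and 1702 against 4592 and 4968. The transcription factors of the pathway differed less. Srebf1 had 5278 and 5292 on SD and 7186 and 7596 on HFD (log2 fold change 0.48, adjusted p = 0.40), and Mlxipl, which encodes ChREBP, had 1486 and 1457 against 1130 and 1180 (-0.35, adjusted p = 0.59). The acetyl-CoA carboxylases Acaca (7557 and 5870 on SD, 10366 and 10204 on HFD) and Acacb (4721 and 1943 on SD, 6019 and 6015 on HFD) were not called either.

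**Figure D3:**
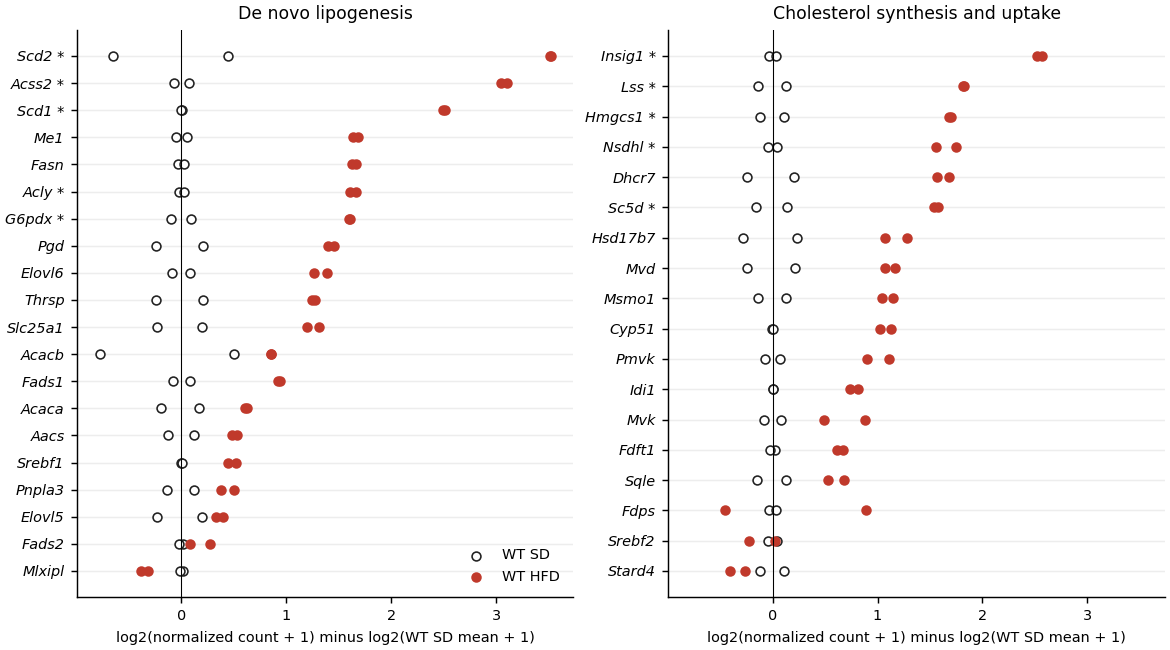
Every WT library for the 20 tested genes of de novo lipogenesis and for 18 of the 21 of cholesterol synthesis and uptake: the horizontal axis gives log2(normalized count + 1) minus log2 of the WT SD mean plus 1, open circles are the 2 SD and red circles the 2 HFD libraries, and an asterisk marks a call. The HFD libraries of Scd2, Acss2, Scd1 and Insig1 lie farthest to the right, while Mlxipl, Srebf2 and Stard4 lie near or below 0.

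Several cholesterol genes rose as well. All 21 were tested, 6 were called higher and none lower (14 and 0 with the libraries as 2 samples), with a median log2 fold change of 1.08. Insig1, which holds SREBP in the endoplasmic reticulum and is itself an SREBP target (ENSMUSG00000045294, chromosome 5, 28071363 to 28078662), rose from 1916 and 1999 to 11580 and 11254 normalized counts, a log2 fold change of 2.54 (SE 0.26, adjusted p = 0.0040). Lss, lanosterol synthase, rose from 308 and 370 to 1204 and 1195 (1.83), Hmgcs1, which feeds the pathway with HMG-CoA, from 2307 and 2694 to 8013 and 8139 (1.70), Nsdhl from 260 and 245 to 743 and 849 (1.65), and Sc5d from 1248 and 1529 to 4044 and 4131 (1.56), with adjusted p-values between 0.023 and 0.047. Srebf2, the transcription factor of the pathway, had 1102 and 1044 against 920 and 1093 (log2 fold change -0.09) and was not called. Dhcr7 had 115 and 84 on SD and 322 and 297 on HFD (1.64, adjusted p = 0.089), and Cyp51, Msmo1 and Hsd17b7 had log2 fold changes of 1.07 to 1.20 and adjusted p-values of 0.060 to 0.063.

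Because 6 of these genes were called in 1 direction, the promoters of the list were inspected. RefSeq windows of 250 bases before to 50 bases after the start of transcription (GRCm38.p6) were found for 14 of the 21 genes. All 14 held the letters CCAAT, a core motif of factor NF-Y, on either strand, as did 41.1% of the 27025 genes with such a window. The letters CACCCCAC, the core of a sterol regulatory element, were found in 1 of the 14, Hmgcs1, and in 3.30% of all genes. The windows of 4 called genes are shown 5′ to 3′ on the strand of the gene, with these letters, or their reverse complement, in capitals. Insig1 holds 1 match (plus strand, chr5:28071162-28071461), Hmgcs1 5 matches (plus strand, chr13:119690101-119690400), Lss 1 match (plus strand, chr10:76531355-76531654) and Nsdhl 4 matches (plus strand, chrX:72918271-72918570).
Insig1: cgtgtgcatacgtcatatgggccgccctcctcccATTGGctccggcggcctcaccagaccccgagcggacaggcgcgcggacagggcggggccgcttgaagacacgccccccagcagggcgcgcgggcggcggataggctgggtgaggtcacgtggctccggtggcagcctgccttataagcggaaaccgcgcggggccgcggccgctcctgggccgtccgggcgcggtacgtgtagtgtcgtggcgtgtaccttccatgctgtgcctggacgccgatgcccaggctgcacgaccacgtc
Hmgcs1: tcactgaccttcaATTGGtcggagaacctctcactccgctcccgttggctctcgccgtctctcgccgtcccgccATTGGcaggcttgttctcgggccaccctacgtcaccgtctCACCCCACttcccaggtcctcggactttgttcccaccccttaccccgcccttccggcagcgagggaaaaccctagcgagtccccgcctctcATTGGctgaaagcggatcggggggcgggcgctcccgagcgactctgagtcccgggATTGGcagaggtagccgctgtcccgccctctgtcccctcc
Lss: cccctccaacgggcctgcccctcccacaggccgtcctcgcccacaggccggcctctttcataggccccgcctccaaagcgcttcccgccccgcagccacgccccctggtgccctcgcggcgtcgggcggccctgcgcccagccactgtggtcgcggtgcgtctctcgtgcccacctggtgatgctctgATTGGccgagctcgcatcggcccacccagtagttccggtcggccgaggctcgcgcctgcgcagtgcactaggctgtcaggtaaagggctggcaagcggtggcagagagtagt
Nsdhl: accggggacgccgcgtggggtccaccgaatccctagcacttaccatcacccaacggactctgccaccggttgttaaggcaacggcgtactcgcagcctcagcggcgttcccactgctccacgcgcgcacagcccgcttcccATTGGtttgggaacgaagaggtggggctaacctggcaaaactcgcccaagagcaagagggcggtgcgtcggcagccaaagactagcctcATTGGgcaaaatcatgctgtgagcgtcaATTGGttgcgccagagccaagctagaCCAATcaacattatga
A match describes the letters of the window and is not evidence of binding.

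Genes that build, coat and empty the lipid droplet differed less. In triglyceride synthesis, 1 of 17 tested genes was called higher (5 with the libraries as 2 samples), with a median of 0.59. This was Agpat2, the acyltransferase whose loss causes lipodystrophy, which rose from 3162 and 2952 to 10035 and 10304 normalized counts (log2 fold change 1.73, SE 0.33, adjusted p = 0.029). Dgat2, which completes triglyceride, had 11291 and 15712 on SD and 39078 and 38200 on HFD (1.54, adjusted p = 0.12), Lpin1 6322 and 7431 against 17212 and 17657 (1.35, adjusted p = 0.083), and Gpd1 6924 and 7652 against 16272 and 16420 (1.17, adjusted p = 0.081). The acyltransferases Gpam (6802 and 3594 on SD, 6419 and 6428 on HFD), Agpat9 (2478 and 2615, 2338 and 2466) and Gpat4 (2371 and 2319, 2711 and 2773) were not called.

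Among 19 genes of lipolysis and the droplet coat, Plin2 was called, with 2534 and 3013 normalized counts on SD and 6149 and 5923 on HFD (log2 fold change 1.13, SE 0.23, adjusted p = 0.034). The lipases of triglyceride breakdown were not called: Pnpla2 (ATGL) had 24830 and 17229 on SD and 35078 and 34158 on HFD, Lipe 11542 and 13399 against 23066 and 23668, and Mgll 12016 and 12421 against 22219 and 22262. Lipe and Mgll passed with the libraries as 2 samples. The coat proteins Plin4 (46426 and 67286 on SD, 104094 and 104425 on HFD) and Cidec (24593 and 31014 on SD, 53794 and 55262 on HFD) were likewise above both SD libraries on HFD without a call.

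In the uptake of fatty acids, Vldlr, the receptor for very-low-density lipoprotein, rose from 886 and 1166 to 4470 and 4322 normalized counts (log2 fold change 2.11, SE 0.30, adjusted p = 0.0096) and was the 1 call of 13 genes. Lpl, lipoprotein lipase, had 91120 and 91503 on SD and 158090 and 157157 on HFD (0.79, adjusted p = 0.27), and the fatty acid transporter Cd36 had 38637 and 38237 against 60546 and 61967. The binding protein Fabp5 had 1347 and 1356 against 2551 and 2562 (adjusted p = 0.064). Gpihbp1, which holds lipoprotein lipase on the capillary endothelium, lay lower on HFD (1480 and 1584 on SD, 870 and 930 on HFD, adjusted p = 0.11), in libraries whose summed endothelial markers were lower as well. Lmf1, a chaperone of the lipase, had 219 and 246 against 338 and 270.

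In fatty acid oxidation, Cpt1a, which admits fatty acids to mitochondria, was called, rising from 844 and 1209 to 2723 and 2626 normalized counts (log2 fold change 1.40, SE 0.26, adjusted p = 0.026). The other 18 tested genes were not called, although 10 of the 19 passed with the libraries as 2 samples and 17 had both HFD libraries above both SD libraries. Among all genes tested, 31.4% had that order. The median log2 fold change was 0.67, and 0.25 with equal totals. Acadl had 3276 and 3607 on SD and 6561 and 6727 on HFD (adjusted p = 0.060) and Cpt2 1261 and 1041 against 2129 and 2275, while the muscle form Cpt1b was near 0 (2 and 6 on SD, 1 and 0 on HFD). Of 21 genes of the citrate cycle and pyruvate entry none was called, 9 passed with the libraries as 2 samples, and 20 lay above both SD libraries, with a median of 0.59 (0.18 with equal totals). Idh3a came closest (1996 and 2282 on SD, 4901 and 4580 on HFD, adjusted p = 0.061). Cs had 4164 and 4037 on SD and 6482 and 6650 on HFD. Glycolysis showed no call in 17 genes (median 0.51, and 0.10 with equal totals), with Eno1 (1157 and 1189 on SD, 2507 and 2668 on HFD) at the upper end and Hk2 (13162 and 12380 on SD, 7692 and 7681 on HFD, log2 fold change -0.73, adjusted p = 0.14) at the lower. The other first members of that list, Hk1 (1068 and 861 on SD, 786 and 675 on HFD) and Gpi1 (1974 and 2106 on SD, 2716 and 2847 on HFD), were not called.

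Genes for breakdown of branched-chain amino acids, insulin signalling and the respiratory chain differed less between the diets. Their medians were 0.24, 0.24 and 0.32 with the deposited scaling and -0.17, -0.18 and -0.09 with equal totals, beside -0.03 and -0.43 over all genes. No gene was called among 18 for branched-chain amino acids (Bcat2 2271 and 2189 on SD, 1388 and 1339 on HFD; Bckdha 541 and 574, 720 and 644; Bckdhb 1110 and 1297, 1258 and 1428) and among 71 nuclear genes of the respiratory chain, 7 of which passed with the libraries as 2 samples. The 7 tested protein-coding genes of the mitochondrial genome were not called either, with a median of 0.40 that became -0.01 with equal totals. In insulin signalling 1 of 18 genes was called, as higher. The insulin receptor Insr had 5236 and 5279 on SD and 6028 and 6309 on HFD, Irs1 2137 and 2061 against 1700 and 1512, Irs2 12834 and 11985 against 7587 and 7699 (log2 fold change -0.70, adjusted p = 0.18), Akt2 3058 and 3568 against 6461 and 6530, and the glucose transporter GLUT4 (Slc2a4) 1297 and 1474 against 2015 and 2055. None of these was called, and Irs2 and Akt2 passed with the libraries as 2 samples, in opposite directions.

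Genes known to follow the expansion of fat tissue were among the largest rises. All 10 of this list had both HFD libraries above the other 6 libraries, beside 20.3% of all genes tested. Of these, 4 were called higher and none lower (8 with the libraries as 2 samples), and the median was 1.28. Sfrp5, a secreted WNT antagonist (ENSMUSG00000018822, chromosome 19, 42197971 to 42202252), rose from 61 and 212 to 3632 and 3956 normalized counts, 27.8-fold (log2 fold change 5.05, SE 0.70, adjusted p = 0.0086). Bmp3 rose from 131 and 346 to 2021 and 2073 (3.26, adjusted p = 0.024). Mest, an imprinted gene of the endoplasmic reticulum (ENSMUSG00000051855, chromosome 6, 30723547 to 30748465), rose from 1375 and 1567 to 8231 and 8586 (2.52, SE 0.29, adjusted p = 0.0045). Copg2 overlaps exons of Mest on the opposite strand, and whether the counting used the strand is not stated. Npr3, the clearance receptor for natriuretic peptides (ENSMUSG00000022206, chromosome 15, 11839896 to 11905674), rose from 9692 and 20151 to 57132 and 57253 (2.03, adjusted p = 0.018). The SD libraries of Sfrp5, Bmp3 and Npr3 differed from each other more than 2-fold, while their HFD libraries nearly coincided. Trp53inp2 (6027 and 8987 on SD, 21013 and 20738 on HFD), Peg3 (5215 and 5129, 10892 and 10711), Sncg (10237 and 16667, 23722 and 23424), Nnat (6179 and 6069, 9019 and 9292) and Plagl1 (2264 and 2462, 2924 and 2748) were not called.

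Of the adipokines 1 was called lower and none higher. Leptin (Lep), the satiety hormone, had 10493 and 19324 normalized counts on SD and 72885 and 73642 on HFD, a 4.91-fold higher mean, but with a log2 fold change of 2.36 (SE 0.69) its adjusted p was 0.088. Adipsin (Cfd), a complement factor made by adipocytes (ENSMUSG00000061780, chromosome 10, 79890853 to 79892656), fell from 112117 and 115512 to 44882 and 44048 (log2 fold change -1.36, SE 0.29, adjusted p = 0.036) and was the 1 call of 15, lost with the trend of GC content and length removed (adjusted p = 0.063) and without the filter (0.14). Adiponectin was not called (log2 fold change 0.66, adjusted p = 0.35), nor were resistin (Retn, 11915 and 11573 on SD, 16581 and 16083 on HFD), Rbp4 (1695 and 2156, 7546 and 7574, adjusted p = 0.065), chemerin (Rarres2, 1157 and 1803, 3683 and 3894) or Nrg4 (1003 and 1045, 2446 and 2641). Leptin, Rbp4, chemerin and Nrg4 passed with the libraries as 2 samples. The list's median of 0.11 became -0.31 with equal totals.

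No gene was called among 20 transcription factors of adipocytes, whose median was 0.26 with the deposited scaling and -0.16 with equal totals. With the libraries as 2 samples 2 passed as higher and 2 as lower, and with equal totals 2 were called lower. Pparg, the master regulator, had 2956 and 3028 on SD and 4129 and 4020 on HFD (log2 fold change 0.45, adjusted p = 0.30), Cebpa 7477 and 8253 against 10206 and 10618, and Cebpb 2838 and 2284 against 1647 and 1658. The largest difference of the list was in Klf14, with 14 and 11 normalized counts on SD and 329 and 239 on HFD (log2 fold change 4.41, adjusted p = 0.10), and the lowest value was that of Stat5a, with 3097 and 2927 against 1788 and 1854 (-0.73, adjusted p = 0.085). Of 8 tested thermogenic genes none was called, 0 also with the libraries as 2 samples. Ucp1 (23 and 18 on SD, 24 and 16 on HFD), Cidea (3 and 12, 41 and 19) and Dio2 (37 and 12, 25 and 65) were at low levels.

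Of the receptors coupled to G proteins 2 rose. Ptger3, the EP3 receptor for prostaglandin E2, rose from 586 and 614 to 6002 and 6192 normalized counts, 10.2-fold (log2 fold change 3.34, SE 0.38, adjusted p = 0.0045). Adora1, the adenosine A1 receptor, rose from 618 and 712 to 2611 and 2498 (1.94, adjusted p = 0.035). Both receptors couple to the inhibitory G protein that lowers cyclic AMP. They were the calls among 23 genes (5 higher and 3 lower with the libraries as 2 samples). The beta-adrenergic receptors were not called, with 6070 and 4375 on SD and 4696 and 4825 on HFD for Adrb3 and 91 and 70 against 61 and 85 for Adrb1. The oxytocin receptor Oxtr had 841 and 1136 against 3870 and 3771 (log2 fold change 1.97, adjusted p = 0.40), in a fit whose spread includes Ad-Yap/Taz-KO libraries with 0 and 22 on SD. Hcar2, the niacin receptor, had 2531 and 2076 on SD and 639 and 803 on HFD (-1.67, adjusted p = 0.058), and the succinate receptor Sucnr1 270 and 303 against 698 and 868. Among 8 caveola genes none was called, with a median of 0.72 and 5 that passed with the libraries as 2 samples. Cav1 had 23499 and 26889 on SD and 44067 and 43299 on HFD, Ptrf 35747 and 36408 against 63388 and 63986, and Cav2 5076 and 5986 against 7895 and 8267.

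**Figure D4:**
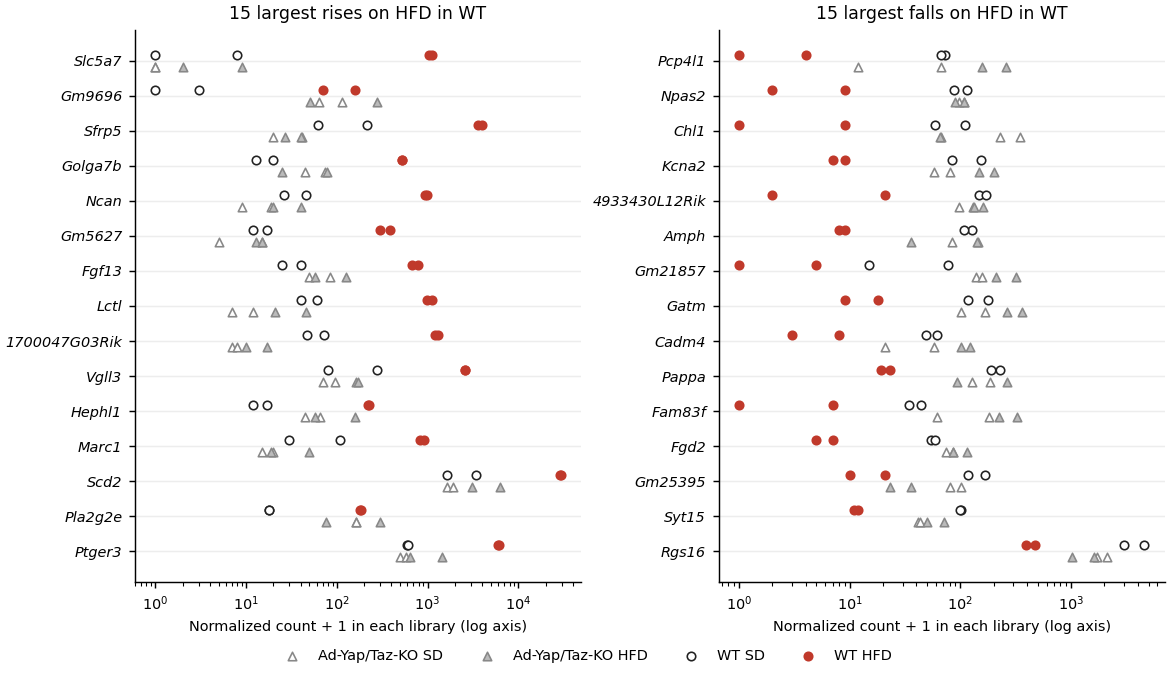
Normalized count plus 1 in each of the 8 libraries, on a log axis, for the 15 largest called rises (left) and falls (right) in WT adipocytes whose normalized counts averaged 50 or more: open circles WT SD, red circles WT HFD, open and grey triangles Ad-Yap/Taz-KO on SD and HFD. Genes were shown only if both WT HFD libraries lay on the same side of both WT SD libraries. The red points lie outside the range of all other points for every gene shown but Gm9696 and Pla2g2e, whose Ad-Yap/Taz-KO values reach the WT HFD values.

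The other largest rises belong to no single pathway. Slc5a7, the high-affinity choline transporter (ENSMUSG00000023945, chromosome 17, 54273594 to 54299034), rose from 0 and 7 to 1033 and 1131 normalized counts (log2 fold change 8.58, SE 1.62, adjusted p = 0.026). The size of this rise depends on the pseudocount, since an SD library is at 0, and with a pseudocount of 0.1 it was 10.33 and not called (adjusted p = 0.12). Gm9696, a transcribed pseudogene whose reads may be shared with related genes, had 2 and 0 on SD and 70 and 158 on HFD, a ratio of 106 with a 95% counting interval of 29.4 to 878 on the 2 SD reads. Golga7b rose from 19 and 12 to 518 and 516, the proteoglycan Ncan from 25 and 45 to 936 and 979, Gm5627 from 11 and 16 to 296 and 386, and Fgf13 from 24 and 39 to 790 and 678. Lctl (39 and 59 to 1114 and 986), the lincRNA 1700047G03Rik (46 and 72 to 1196 and 1312), Hephl1 (16 and 11 to 228 and 218), Marc1 (29 and 108 to 827 and 904) and the secreted phospholipase Pla2g2e (17 and 17 to 181 and 186) also rose, by 3.36 to 4.42 on the log2 scale. Both HFD libraries lay above both SD libraries in each of these genes, which was a condition for entering the 15 largest rises.

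Most of the 15 largest falls were in genes at low levels. The mean of at least 50 that they had to reach was taken over all 8 libraries. Pcp4l1, Chl1, Cadm4, Fam83f, Fgd2 and Gm21857 averaged less than 50 over the WT libraries and reached it through their Ad-Yap/Taz-KO values. Pcp4l1 had 71 and 66 normalized counts on SD and 3 and 0 on HFD, a 45.7-fold lower level with a counting interval of 15.6 to 221 on the 3 HFD reads. Chl1, a cell adhesion molecule, fell from 58 and 108 to 0 and 8, the potassium channel gene Kcna2 from 83 and 151 to 6 and 8, Amph from 125 and 106 to 8 and 7, and Syt15 from 100 and 99 to 10 and 11. Gatm, the first enzyme of creatine synthesis, fell from 117 and 178 to 8 and 17 (log2 fold change -3.43, SE 0.45, adjusted p = 0.0076). Cadm4, Fam83f and Fgd2 (33 to 60 on SD, 0 to 7 on HFD) fell by 3.23 to 3.31, and the antisense gene 4933430L12Rik (145 and 169 to 20 and 1), the pseudogene Gm21857 (77 and 14 to 4 and 0) and the small RNA gene Gm25395 (164 and 116 to 9 and 20) had log2 fold changes of -3.78 to -3.16. The falls of Pcp4l1, Chl1, 4933430L12Rik, Gm21857, Cadm4, Fam83f and Gm25395 moved by more than 1.5 times on leaving out an HFD library, to between -6.33 and -2.47, and the calls of Gm21857 and Fam83f were lost without WT HFD replicate 2 (adjusted p = 0.076 and 0.057). Dedd2 overlaps 4933430L12Rik on the opposite strand and A430088P11Rik overlaps Fam83f likewise. Rgs16, a brake on G protein signalling (ENSMUSG00000026475, chromosome 1, 153740349 to 153745468), was the most abundant of the 15, with 4577 and 2979 on SD and 466 and 387 on HFD (log2 fold change -3.11, SE 0.33, adjusted p = 0.0041).

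The long noncoding RNA Neat1, the scaffold of nuclear paraspeckles (ENSMUSG00000092274, chromosome 19, 5824708 to 5845478), lost more normalized counts than any other gene. It had 186796 and 167516 on SD and 24252 and 24892 on HFD, a 7.21-fold lower mean (log2 fold change -2.85, SE 0.33, adjusted p = 0.0045). Its 4 Ad-Yap/Taz-KO libraries lay between 111598 and 131560. Malat1, its neighbour and likewise a nuclear RNA, had 190396 and 189574 on SD and 175192 and 169802 on HFD and was not called (log2 fold change -0.14, adjusted p = 0.87). The RNase P RNA gene Rpph1 had 29680 and 32258 against 9774 and 7382 (-1.85, adjusted p = 0.084), and haptoglobin (Hp) 33212 and 60306 against 29490 and 30057. Cfd, Junb, Jun, Fos, Egr1 and Ifrd1 (34470 and 35950 on SD, 22734 and 22672 on HFD) complete the 10 largest losses.

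The circadian clock showed opposite changes. Of 20 genes, 2 were called higher and 3 lower (5 and 4 with the libraries as 2 samples), and the median of 0.27 became -0.14 with equal totals. Npas2, a partner of BMAL1 (ENSMUSG00000026077, chromosome 1, 39193731 to 39363236), fell from 113 and 86 to 1 and 8 normalized counts (log2 fold change -4.18, SE 0.48, adjusted p = 0.0045, and -3.47 or -5.64 without either HFD library), while its Ad-Yap/Taz-KO libraries held 89 to 107. Arntl, which encodes BMAL1 (ENSMUSG00000055116, chromosome 7, 113207465 to 113314126), fell from 817 and 502 to 178 and 178 (-1.84, SE 0.32, adjusted p = 0.018). The period gene Per2 rose from 415 and 565 to 1365 and 1613 (1.62, SE 0.26, adjusted p = 0.016) and the clock output gene Dbp from 207 and 244 to 730 and 647 (1.61, adjusted p = 0.030). Sphk2 overlaps Dbp on the opposite strand. Clock had 3283 and 3094 on SD and 3721 and 3677 on HFD, Nr1d1 6024 and 5181 against 4773 and 4728, Cry1 266 and 174 against 201 and 198, and Per3 1124 and 1371 against 1937 and 2055. Bhlhe40 (6976 and 4518 on SD, 3177 and 3216 on HFD) and Bhlhe41 (220 and 134, 362 and 370) passed with the libraries as 2 samples, in opposite directions. The hour of tissue collection is not given in the sources used here.

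YAP and TAZ, the subjects of the study, were measured as well. In WT adipocytes Yap1 had 2776 and 2717 normalized counts on SD and 2468 and 2333 on HFD (log2 fold change -0.19, SE 0.23, adjusted p = 0.66), and Wwtr1, which encodes TAZ, had 5594 and 4743 against 7121 and 6807 (0.44, SE 0.25, adjusted p = 0.32). Of 21 tested YAP/TAZ targets none was called (3 higher and 4 lower with the libraries as 2 samples), and the median of 0.19 became -0.22 with equal totals. Cyr61 had 5335 and 5442 on SD and 10496 and 10339 on HFD (0.95, SE 0.25, adjusted p = 0.068), Ctgf 101 and 154 against 203 and 242, Amotl2 4254 and 5972 against 7068 and 7075, and Lats2 1634 and 1724 against 2459 and 2266. All 4 had both HFD libraries above the other 6 libraries. This order held for 10 of the 21 targets and for 20.3% of all genes tested, and 3 of the 21 lay below the other 6. The study reports the targets just named as reduced in Ad-Yap/Taz-KO adipocytes. Lying above the Ad-Yap/Taz-KO libraries therefore does not test the effect of the diet. Against the WT SD libraries alone, 10 of the 21 targets lay above both and 6 below both. Axl (981 and 995 on SD, 434 and 575 on HFD) and Nt5e (300 and 154, 59 and 74) lay lower. Among 16 genes for YAP, TAZ, their TEAD partners and the Hippo kinases, Vgll3, a cofactor that competes for TEAD factors (ENSMUSG00000091243, chromosome 16, 65815633 to 65863057), was the 1 call, and the median of 0.36 became -0.05 with equal totals. It rose from 80 and 274 to 2599 and 2593 (log2 fold change 4.12, SE 0.57, adjusted p = 0.0086), and by 3.24 or 5.00 without either SD library. Tead1 had 2838 and 2657 on SD and 3627 and 4190 on HFD, Tead4 264 and 170 against 115 and 118, Lats1 1534 and 1496 against 2102 and 2498, and Stk4 487 and 499 against 855 and 736.

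Of 15 BCL2 family genes, which balance survival and apoptosis, Bcl2l11 (Bim, pro-apoptotic) was called. It fell from 1035 and 985 to 541 and 438 normalized counts (log2 fold change -1.04, SE 0.24, adjusted p = 0.047). The call was lost with a pseudocount of 0.1 (adjusted p = 0.057), without the filter (0.14) and without WT HFD replicate 2 (0.061), beside the loss without either WT SD library (0.28 and 0.20). The anti-apoptotic genes were not called: Bcl2 had 419 and 561 on SD and 726 and 658 on HFD, Bcl2l2 656 and 731 against 996 and 990, and Bcl2l1 498 and 451 against 563 and 537. The pro-apoptotic Bbc3 (448 and 289 on SD, 159 and 188 on HFD, adjusted p = 0.11) and Bid (105 and 123, 292 and 296, adjusted p = 0.060) passed with the libraries as 2 samples, the former as lower and the latter as higher.

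In the WNT pathway, whose median of 0.17 became -0.24 with equal totals, 2 of 24 tested genes were called higher, Sfrp5 and the coreceptor Lrp6 (3558 and 4113 on SD, 7151 and 7166 on HFD, log2 fold change 0.90, adjusted p = 0.047), and the antagonist Sfrp1 was called lower (416 and 477 to 107 and 92, -2.15, adjusted p = 0.048). Sfrp2 (55 and 59 on SD, 11 and 40 on HFD) and Sfrp4 (4 and 6, 9 and 24) were low. In the TGF-beta and BMP pathway Bmp3 and the activin subunit Inhbb (904 and 1176 to 2528 and 2284, log2 fold change 1.22, adjusted p = 0.045) were called higher and Id1, a BMP target (1590 and 1200 to 381 and 426, -1.77, adjusted p = 0.030), and Tgfb1 (1864 and 1542 to 761 and 791, -1.13, adjusted p = 0.048) lower, of 29 tested genes whose median was -0.39. With equal totals 1 was called higher and 5 lower, and with upper-quartile scaling or quantile normalization 1 higher and 3 lower. Tgfb2 (252 and 68 on SD, 77 and 78 on HFD) and Tgfb3 (558 and 654, 624 and 568) were not called.

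The growth hormone and IGF axis was lower in part. Of 15 genes 3 were called lower and none higher (7 lower and 2 higher with the libraries as 2 samples), with a median of -0.73. Pappa, a protease that frees IGF from its binding proteins, fell from 188 and 226 to 18 and 22 normalized counts (log2 fold change -3.30, SE 0.56, adjusted p = 0.018). Cish, a feedback inhibitor of growth hormone signalling, fell from 1979 and 1091 to 236 and 242 (-2.62, adjusted p = 0.0064), and Igfbp7 from 2948 and 2333 to 1073 and 1145 (-1.24, adjusted p = 0.027). Socs2, a second feedback gene, had 527 and 316 on SD and 130 and 130 on HFD (adjusted p = 0.060), and Igf2 126 and 182 against 37 and 21 (adjusted p = 0.063). The receptor Ghr (29062 and 29244 on SD, 36194 and 35815 on HFD) and Igf1 (8229 and 7236, 7056 and 6878) were not called.

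Of 14 angiogenic factors, Fgf1 was called higher and Angpt1 lower. Fgf1, an adipocyte growth factor, rose from 181 and 241 to 1943 and 1885 normalized counts, 9.07-fold (log2 fold change 3.19, SE 0.30, adjusted p = 0.0040). Angpt1 fell from 1225 and 790 to 352 and 324 (-1.54, adjusted p = 0.039). Vegfa had 11403 and 9463 on SD and 7013 and 6835 on HFD (-0.59, adjusted p = 0.23), Vegfb 1448 and 1449 against 2417 and 2254, Vegfc 91 and 43 against 33 and 31, and Hif1a 4391 and 4448 against 7221 and 6950.

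Collagens changed in both directions, 2 called higher and 4 lower of 21 (6 and 6 with the libraries as 2 samples), with a median of -0.003. Col12a1 rose from 196 and 183 to 1623 and 1505 normalized counts, 8.25-fold (log2 fold change 3.04, SE 0.30, adjusted p = 0.0040), and Col6a1, a chain of the collagen VI of fat tissue, from 5974 and 5766 to 13782 and 13346 (1.21, adjusted p = 0.042). Col6a2 (4733 and 4508 on SD, 10463 and 10384 on HFD, adjusted p = 0.058) and Col15a1 (9167 and 10768, 22113 and 22254, adjusted p = 0.051) lay just outside the limits. The minor basement membrane chains Col4a5 (763 and 586 to 161 and 88, -2.42) and Col4a6 (246 and 146 to 27 and 25, -2.82), neighbours on chromosome X at 141475385 to 141689234 and 141165403 to 141474076, fell, as did Col6a6 (1466 and 1485 to 344 and 320, -2.15, adjusted p = 0.0052) and Col27a1 (230 and 176 to 52 and 54, -1.91). The fibrillar collagens Col1a1 (4873 and 3566 on SD, 4131 and 4189 on HFD), Col1a2 (6563 and 6215, 3681 and 3917) and Col3a1 (20087 and 15951, 13083 and 13180) were not called.

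Among 25 matricellular proteins, proteases and crosslinking enzymes, Lox, lysyl oxidase (757 and 853 to 2280 and 2193, log2 fold change 1.48, adjusted p = 0.017), and the collagen chaperone Serpinh1 (4903 and 5197 to 11187 and 11351, 1.16, adjusted p = 0.028) rose, and the proteases Mmp2 (1240 and 1034 to 294 and 365, -1.78, adjusted p = 0.016) and Mmp11 (93 and 57 to 13 and 13, -2.40, adjusted p = 0.034) fell. With the libraries as 2 samples 8 passed as higher and 6 as lower, and with equal totals 1 was called higher and 7 lower. Sparc had 41241 and 46070 on SD and 85278 and 84189 on HFD (adjusted p = 0.079), Timp4 1334 and 2176 against 4078 and 4050, and Fn1 3841 and 3908 against 2775 and 2901. Loxl1 (1241 and 1054 on SD, 499 and 583 on HFD), Mmp14 (1173 and 936, 378 and 415) and Timp2 (2690 and 2187, 1049 and 1140) lay lower on HFD without a call. Tnc differed more between the SD libraries (1585 and 4399) than between the diets (4247 and 4216 on HFD). The summed fibroblast markers were lower on HFD in the same libraries, with Pdgfra called lower (1310 and 993 to 402 and 455, -1.41) and Dcn at 7506 and 7339 on SD and 3307 and 3488 on HFD (adjusted p = 0.060), whereas Dpt of the same list was called higher (1388 and 1464 to 4087 and 3916, 1.49). The pericyte marker Cspg4 was also called higher (868 and 851 to 2431 and 2410, 1.49). It was not typical of its list, in which 7 of 10 mural and smooth muscle markers had negative log2 fold changes (median -0.62).

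Immediate-early genes, which are induced by stress and by the dissociation of tissue, were lower. All 21 were below both SD libraries on HFD, beside 33.6% of all genes tested, and 6 were below the other 6 libraries, beside 17.1%. The median log2 fold change was -0.75, but 2 were called, Atf3 (6664 and 7843 to 2650 and 2546, -1.48, SE 0.21, adjusted p = 0.0096) and Junb (32135 and 30588 to 13063 and 13318, -1.25, adjusted p = 0.036). With the libraries as 2 samples 16 passed as lower, and with equal totals 17 were called lower. Jun had 40952 and 36846 on SD and 21238 and 21627 on HFD (adjusted p = 0.071), Fos 34860 and 30383 against 19366 and 19717 (adjusted p = 0.11), Fosb 21100 and 20175 against 11972 and 11668 (adjusted p = 0.079) and Egr1 39201 and 29737 against 22005 and 21189 (adjusted p = 0.18). Egr3 (524 and 293, 132 and 139), Nr4a1 (6298 and 6543, 3318 and 3615), Nr4a3 (1736 and 1507, 706 and 720), Ier2 (4300 and 4338, 2548 and 2375) and Dusp1 (9886 and 9540, 5849 and 5700) were likewise lower without a call. For Jun and Fos the 4 Ad-Yap/Taz-KO libraries, with 14478 to 15377 and 10875 to 12615, were lower than all WT libraries.

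No inflammatory mediator was called higher on HFD. Of 23 genes Cxcl10 was called lower (3986 and 2345 to 937 and 1128 normalized counts, log2 fold change -1.57, SE 0.36, adjusted p = 0.048). With the libraries as 2 samples 7 passed as lower and 0 as higher, and with equal totals 6 were called lower. The median was -0.68, and 16 had both HFD libraries below both SD libraries, as did 33.6% of all genes tested. Tnf had 680 and 688 on SD and 429 and 504 on HFD (-0.55, adjusted p = 0.31), Il6 1183 and 1053 against 676 and 839, and Il1b 134 and 81 against 88 and 126. The inhibitors of NF-kappaB signalling Nfkbia (14146 and 13650 on SD, 7507 and 7595 on HFD, adjusted p = 0.053) and Tnfaip3 (20181 and 22330, 11190 and 11981, adjusted p = 0.063) and the chemokine Cxcl12 (4363 and 3907, 1607 and 1900) were lower without a call. Beside these genes the summed macrophage markers were lower by a ratio of 0.584. Of these 14 markers 13 were below both SD libraries, Cd68 was called lower (480 and 334 to 143 and 201, -1.21), Lyz2 had 1453 and 1616 on SD and 625 and 578 on HFD, and Csf1r 655 and 583 against 287 and 284. Mmp12 of the lipid-associated macrophages was called lower as well (268 and 394 to 87 and 76, -1.98). All 13 endothelial markers were below both SD libraries, with Egfl7 called lower (1458 and 1259 to 491 and 525, -1.41), Pecam1 at 7735 and 6277 on SD and 3800 and 4095 on HFD and Cdh5 at 10090 and 8227 against 5307 and 5546. Of the other cell types Hbb-bt of erythrocytes was called lower (87 and 96 to 24 and 20), and Wt1 of mesothelial cells was not (142 and 151 to 46 and 54, adjusted p = 0.057). Wt1 ran against its list, in which 7 of 10 tested mesothelial markers had positive log2 fold changes (median 0.80).

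Among 16 interferon-induced genes none was called (1 higher and 4 lower with the libraries as 2 samples, 5 lower with equal totals), with Isg15 at 81 and 84 on SD and 42 and 28 on HFD, Ifit1 at 226 and 243 against 145 and 160, and Ifit3 opposite at 111 and 91 against 308 and 238 (adjusted p = 0.058). Of 11 complement genes Cd59a, an inhibitor of the membrane attack complex, rose from 831 and 1246 to 3500 and 3652 (log2 fold change 1.81, adjusted p = 0.034) and Cfd fell. C3 had 22251 and 17398 on SD and 8220 and 8611 on HFD (-1.23, adjusted p = 0.056) and Cfb 90 and 168 against 171 and 152.

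Of 21 genes of endoplasmic reticulum stress 1 was called higher (1 higher and 2 lower with the libraries as 2 samples, 0 higher and 4 lower with equal totals). Sel1l, which handles misfolded proteins, rose from 2404 and 2302 to 5073 and 4805 (log2 fold change 1.07, adjusted p = 0.031). The chaperones Hspa5 (35045 and 39037 on SD, 27234 and 27854 on HFD), Hsp90b1 (8044 and 8065, 7679 and 7333) and Calr (12277 and 12021, 12605 and 12309) were not called. Of 17 heat shock genes 1 was called lower (3 higher and 4 lower with the libraries as 2 samples, 5 lower with equal totals). Hspa1a fell from 1429 and 1340 to 531 and 538 (-1.37, adjusted p = 0.018). Hspa1b, a nearly identical copy, had 1835 and 1599 on SD and 778 and 873 on HFD, and reads that align to both copies were left out, so that both values are uncertain. Hspa4 had 3050 and 3050 against 4027 and 4076. Gstm1, a glutathione transferase, rose from 1748 and 1396 to 4247 and 4283 (1.45, adjusted p = 0.017) as the 1 call of 16 NRF2 targets and metallothioneins, beside Nqo1 (83 and 40 on SD, 34 and 56 on HFD), Hmox1 (6886 and 7201, 3812 and 4097), Gclc (1506 and 1478, 927 and 746) and catalase (Cat, 9020 and 9096, 17505 and 17497). None of 20 genes of DNA replication and mitosis was called (2 lower with the libraries as 2 samples), with Mki67 at 617 and 758 on SD and 369 and 408 on HFD, Top2a at 163 and 249 against 140 and 138, and Ccna2 at 24 and 79 against 17 and 22. Of 79 tested ribosomal protein genes 1 was called, Rps14, which fell from 2199 and 1934 to 667 and 615 (-1.68, adjusted p = 0.031) in a list whose median was -0.07.

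**Figure D5:**
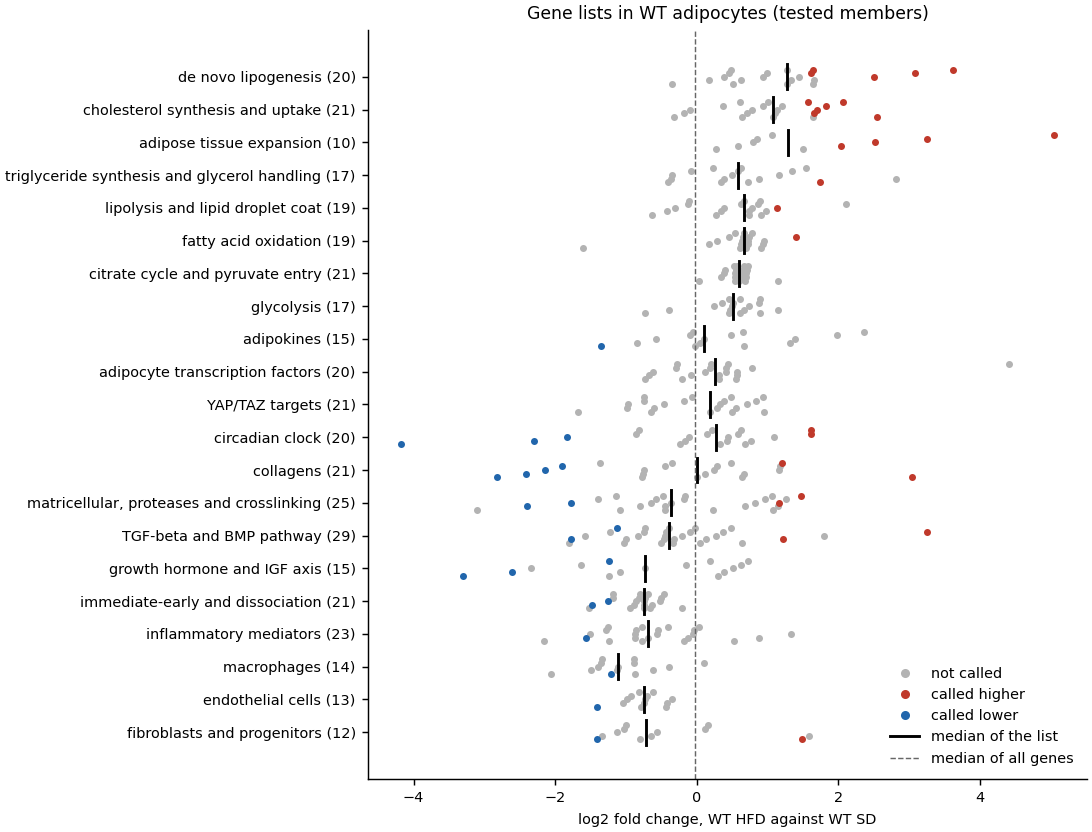
Log2 fold change, WT HFD against WT SD, of the tested members of 18 gene lists and 3 marker lists, with the number tested in parentheses: red and blue points are called higher and lower, grey points not called, black bars list medians and the dashed line the median of all genes (-0.03). Lipogenesis (1.27), cholesterol genes (1.08) and tissue expansion (1.28) lie to the right, the growth hormone axis (-0.73), immediate-early genes (-0.75) and macrophage markers (-1.12) to the left.

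In Ad-Yap/Taz-KO adipocytes, whose libraries enter the WT comparison through the spread and the filter on low values, the same diet gave 28 called genes (0.149% of the genes tested), 8 higher and 20 lower. Of these, 4 were also called in WT in the same direction and 2 in the opposite direction. The effect of the diet differed between the genotypes, tested as an interaction, for 517 genes (2.75%), of which 270 were among the 539 called in WT. Scd1 had 163234 and 233338 normalized counts on SD in the Ad-Yap/Taz-KO mice and 501294 and 258238 on HFD, and its interaction was not called (adjusted p = 0.19). Insig1 had 2757 and 2869 against 4565 and 2924 there, with a log2 fold change of 0.38, which differed from the 2.54 of WT by 2.17 (SE 0.34, adjusted p = 0.024). Mest had 214 to 306 in all 4 Ad-Yap/Taz-KO libraries, and its diet effect differed by 2.51 (adjusted p = 0.023). Sfrp5 lay between 19 and 40 in them (difference 4.85, adjusted p = 0.033). Mmp2 went the other way, from 1557 and 969 on SD to 3659 and 4228 on HFD (difference -3.46, SE 0.37, adjusted p = 0.015). For Lox, which had 906 and 719 on SD and 1749 and 2178 on HFD there, Plin2 (6348 and 5401, 12004 and 9817) and Dbp (152 and 183, 589 and 413) a difference between the genotypes was not shown, with adjusted p-values of 0.66 to 0.95. Since WT HFD libraries enter both the WT comparison and the interaction as 1 sample, what sets these libraries apart from the other 6 moves with both.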

How the data were processed

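Total RNA of isolated adipocytes was depleted of ribosomal RNA and sequenced by the authors on a NextSeq500 after library preparation with a stranded kit for low input. The authors trimmed the reads, aligned them with STAR 2.5.2b and counted them per gene with featureCounts 1.5.1, leaving out reads that map to several places or genes. The use of the strand in counting is not stated. The score deposited by the authors for each gene and library is its count divided by a size factor (their tool was DESeq2 1.14.1) and rounded, called normalized count here. Since the values are rounded after scaling, no count model was fitted.

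Groups came from the sample labels. Values were transformed as log2(normalized count + 1), genes averaging 5 or more across the 8 libraries were kept, and limma 3.58.1 (R 4.3.3) was fitted with 4 group means and a trended prior. The residual degrees of freedom were 3, those of the prior 7.58. The WT HFD libraries were averaged, so that 7 samples entered. The limits were a Benjamini-Hochberg adjusted p of 0.05 over all genes tested and a log2 fold change of 0.59. The precision rests on 14.0 to 22.3 M reads per WT library and counting intervals cover counting error only. On simulated data run through the same fit, with 2 libraries per group of which the WT HFD pair shared its biological deviation and was averaged, 24 of 66 genes changed by 1 on the log2 scale, 41 of 66 changed by 2 and 53 of 67 changed by 3 were called. The simulation gave all groups the same spread. In the data, the median absolute log2 ratio between libraries at 1000 to 5000 reads was 0.23 and 0.21 in Ad-Yap/Taz-KO on HFD and SD and 0.14 in WT SD. These rates are therefore not those of the real fit.

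The genes named were the 15 largest called rises and falls with a mean of at least 50, the 10 largest gains and losses, up to 6 called members and the first 3 members of each of 37 gene lists, YAP/TAZ and the targets and BCL2 genes named by the study. Other list members are given to account for them, and a few genes are not reported here. For the largest rises and falls, both WT HFD libraries had to lie on the same side of both WT SD libraries. Their mean of at least 50 was taken over all 8 libraries. The genes, the lists and 11 marker lists were chosen with earlier results of these data known. Alternatives covered the pseudocount, the filter, the scaling, the fit, GC content and length, the limits and leaving out each WT library. Promoter windows came from RefSeq. Python 3.11.15 was used for the summaries.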

Additional observations from a re-analysis of the deposited data

Results flagged for a closer look

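For 54 of the genes named, the effect of the diet differed between WT and Ad-Yap/Taz-KO adipocytes in limma's test of the interaction, beside 2.75% of all genes tested. The genes named comprise 87 called in WT and 171 not called. Many were picked for a large or called diet effect in WT, which is itself a term of the interaction. The share of calls among them and the match of signs below follow in part from this choice. The values are the log2 fold change on HFD in WT minus that in Ad-Yap/Taz-KO adipocytes. The difference was positive for genes called higher in WT, namely Golga7b (5.40), Sfrp5 (4.85), Fgf13 (4.13), Acss2 (2.97), Fgf1 (2.79), Cd59a (2.60), Ptger3 (2.52), Mest (2.51), Col12a1 (2.33), Insig1 (2.17), Vldlr (1.94), G6pdx (1.89), Lss (1.86), Acly (1.72) and Gstm1 (1.68). It was also positive for Rbp4 (3.08) and Fads1 (1.43), which were not called in WT.

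The difference was negative for genes called lower in WT. Those with a difference beyond -3 were Pcp4l1 (-7.61), Kcna2 (-5.15), Cadm4 (-4.99), Gatm (-4.68), Fam83f (-4.63), 4933430L12Rik (-4.16), Npas2 (-4.12), Syt15 (-3.63), Fgd2 (-3.55), Mmp2 (-3.46), Col4a6 (-3.39), Pappa (-3.35) and Mmp11 (-3.34). The others were Hbb-bt (-2.91), Col6a6 (-2.87), Sfrp1 (-2.83), Pdgfra (-2.79), Neat1 (-2.77), Col4a5 (-2.60), Col27a1 (-2.56), Rgs16 (-2.56), Cd68 (-2.12), Bcl2l11 (-1.81), Tgfb1 (-1.72), Egfl7 (-1.55), Atf3 (-1.53) and Hspa1a (-1.32). Genes with a negative difference that were not called in WT were Mmp14 (-2.85), Wt1 (-2.38), Axl (-2.25), Timp2 (-2.24), Col1a2 (-2.04), Dcn (-2.03), Csf1r (-1.83), Mki67 (-1.69), Nr4a3 (-1.68) and Dusp1 (-1.24). The WT HFD libraries, which lie outside the range of the other 6 libraries for many genes, enter all these differences as 1 sample. In Ad-Yap/Taz-KO mice the summed macrophage markers were 18265 and 31636 on SD and 32399 and 34926 on HFD, against 3690 to 6550 in WT, and their part in these differences was not tested.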

How the results depend on the processing

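Of the 539 genes called, the number and its split into higher and lower moved with several choices, and the cause was not tested except where stated. With the WT HFD libraries as 2 samples 3377 genes were called, and 3870 (2069 higher, 1801 lower) when in addition the WT groups were fitted alone. Without the filter on low values 334 genes were called (300 higher, 34 lower), with more genes tested. Scaling to the same total gave 1348 (126 higher, 1222 lower), upper-quartile scaling 818 (208 higher, 610 lower) and quantile normalization 326 (108 higher, 218 lower). An adjusted p of at most 0.01 left 60 genes. Leaving out 1 WT library gave between 0 and 1050 genes: 0 without WT SD replicate 1 (2447 at an unadjusted p below 0.05), 18 without WT SD replicate 2, 1050 without WT HFD replicate 1 and 787 without WT HFD replicate 2. With a replicate block 2935 genes were called (1402 higher, 1533 lower), beside 3377 in the same fit without it. The replicate numbers did not pair the libraries, as the differences between replicates 1 and 2 on SD and on HFD had a correlation of 0.03 over 12093 genes in WT. Pseudocounts of 0.1 and 8, a mean of at least 50, the robust fit, removal of the trend with GC content and length, and a log2 limit of 1 gave between 423 and 774 genes.

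Of the 87 called genes named, 87 were also called with the WT HFD libraries as 2 samples, 68 with a pseudocount of 0.1, 79 with equal totals, 65 with quantile normalization, 7 without the filter, 0 without WT SD replicate 1, 9 without WT SD replicate 2 and 82 to 87 in the other fits. None was called in the other direction in any of these fits. Low depth limits genes with a few reads, such as Gm9696 and Pcp4l1.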
